A study of Danio rerio with 24 samples.

Results

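The crystallin genes were taken as every gene of the count table whose symbol begins with crya, cryb or cryg. There were 47 of them among 23219 counted genes. The annotation deposited with the counts holds 60 genes with such symbols, and the other 13 were not analysed here. Among these 13 were cryaba, crybb2 and the gamma M2 genes crygm2a, crygm2b, crygm2c and crygm2e. Sums and shares of gamma M2 given below therefore cover only the 22 counted genes of that family. By family the 47 were 2 alpha genes, 12 beta genes, 22 gamma M2 genes, 5 other gamma M genes, 2 gamma N genes and 1 gamma S gene. The remaining ones were crybgx and the pair crybg1a and crybg1b. That pair encodes large proteins which carry the crystallin fold as a domain and are not lens crystallins.

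Crystallins are the soluble proteins that fill the fibre cells of the lens and give it its refractive power. Alpha crystallins are small heat shock proteins that keep other proteins in solution. Beta and gamma crystallins share a fold built from Greek key motifs, and the gamma M proteins, rich in methionine, are abundant in the dense lenses of fish. Fibre cells differentiate from the lens mass during the second day of zebrafish development, and crystallin transcripts accumulate as they do so.

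Whole zebrafish embryos of wild type and of a maternal eevs mutant line, Meevs, were exposed to UVB (ultraviolet B) at 450 J, with no area in the labels, or mock treated at 24 h post fertilisation (hpf). Collection followed 5 h later, at 29 hpf, or 24 h later, at 48 hpf, and all embryos were kept in the dark. The 8 groups were wild type mock, wild type UVB, Meevs mock and Meevs UVB at each of the 2 stages, with 3 polyA RNA libraries each. Fish need eevs to make the sunscreen compound gadusol; which lesion the mothers carried, and which alleles the embryos themselves had, the labels leave unsaid.

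Library totals lay between 22395870 and 44691629 counts, and 22340 genes were tested. The first principal component of log2 CPM (counts scaled to library size) separated the stages with 58.98% of the variance, and the second, with 17.96%, separated the genotypes. The 4 groups whose outermost library lay farthest from the mean of its fellow replicates on these components, by 15.6 to 30.2, had as that library replicate 3 of Meevs mock and of wild type UVB at 29 hpf, replicate 1 of wild type UVB and replicate 3 of Meevs UVB at 48 hpf. Counts of called genes are also given without these 4 libraries. The targeted gene eevs was read in mock embryos at 29 hpf at 0.216 ± 0.0355 CPM in wild type against 0.211 ± 0.102 CPM in Meevs (SD, n = 3), and at 48 hpf at 0.712 ± 0.0759 and 2.53 ± 0.885 CPM. With UVB it was at 0.289 ± 0.0753 and 2.22 ± 0.276 CPM at 29 hpf, and at 0.402 ± 0.0793 and 0.663 ± 0.158 CPM at 48 hpf. The Meevs mean thus lay above that of wild type in 3 of the 4 pairs, and in Meevs eevs was higher with UVB at 29 hpf and lower at 48 hpf. Since the mother's genotype is what the label names, these levels check no label. All wild type libraries carry 1 library series in the descriptions and all Meevs libraries another, so genotype and library series cannot be told apart. Nothing in the labels ties a replicate to its own clutch. The spread behind each p-value is thus that of these libraries alone and may be technical.

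Among the 47 crystallin genes 45 entered the test. The filter on low counts removed crygs4 (at most 23 counts in a library) and crygm4 (at most 15). On the 29 hpf libraries alone 39 would have passed. The other 6, crybgx, crygm5, crygmxl1, crygm2d11, crygm2d15 and crygm2f, passed only through their counts at 48 hpf. For a gene with under 10 counts summed over the 3 libraries of a group, counts are given in place of a fold change. Levels are CPM scaled by TMM and not by transcript length, so they compare libraries for 1 gene and not genes with each other. Log2 fold changes are given ± SE, and a gene is called at an adjusted p under 0.05 in the quasi-likelihood test of edgeR.

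The 22 gamma M2 genes lie side by side on chromosome 9, from 22091161 to 22345500 (GRCz11), a stretch of 254 kb, and all are on the minus strand. The symbol crygm2d17 is used for 2 of them, which are told apart here by their identifiers. As tandem copies of 1 family they may have shared or lost reads in the authors' counting, and their single values are uncertain. How this bears on the sum over the family depends on how such reads were counted, which is not known here. In addition, crygm2d14 contains crygm2d16 on the same strand and crygm2f overlaps crygm5. In all, 12 of the 47 genes overlap another annotated gene, including cryba1a and crybb1l3, which overlap on opposite strands.

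Between 29 and 48 hpf the crystallins as a whole rose several-fold in wild type mock embryos. Their summed level was 660.7, 833.7 and 724.5 CPM in the 3 libraries at 29 hpf and 4311, 5412 and 4224 CPM at 48 hpf. These are 739.6 ± 87.5 and 4649 ± 662 CPM (SD, n = 3). Without crybg1a and crybg1b the means were 623.3 ± 95.0 and 4544 ± 664 CPM. In whole embryos more lens cells and more RNA per lens cell cannot be told apart.

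**Figure D1:**
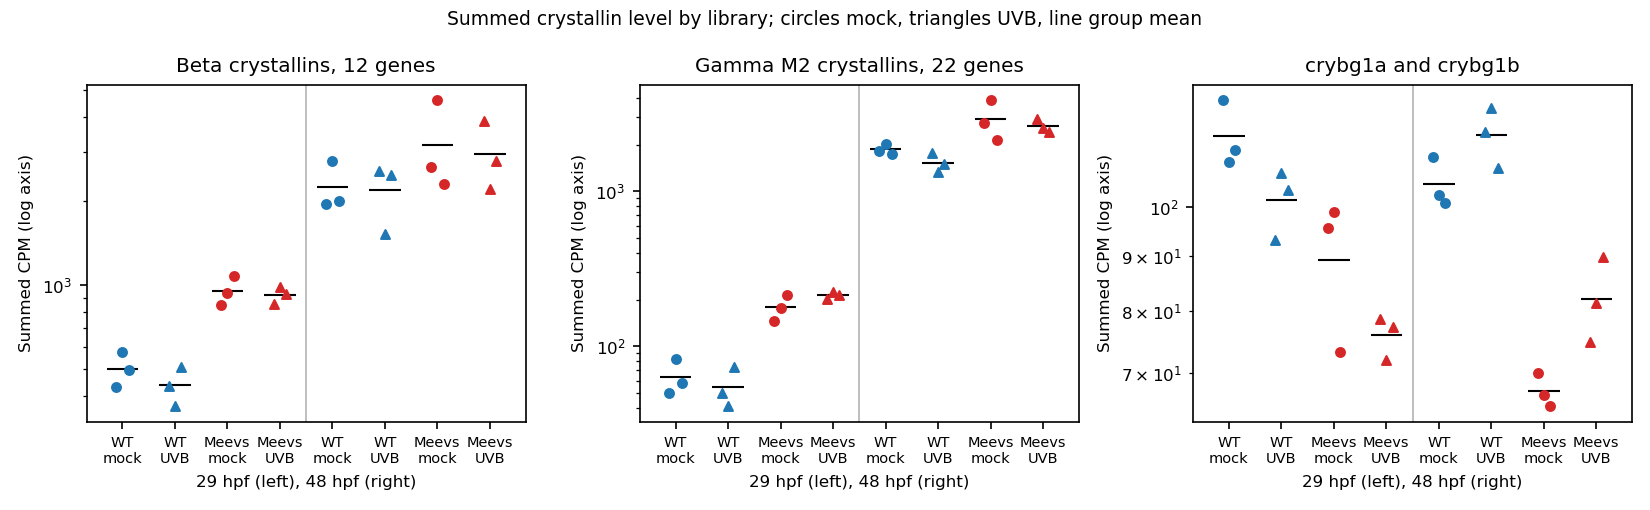
Summed CPM of the 12 beta crystallins (left), the 22 gamma M2 crystallins (middle) and crybg1a with crybg1b (right) in each of 24 libraries, on log axes; circles are mock, triangles UVB, blue wild type, red Meevs, and black lines are means of 3 libraries. The 48 hpf libraries lie above all 29 hpf libraries for the beta and gamma M2 sums, from 1529 CPM for beta and from 1326 CPM for gamma M2, while for the pair on the right the stages overlap.

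Families rose by unequal factors. The beta sum went from 501.3 to 2252 CPM in wild type mock embryos, a ratio of 4.49. The gamma M2 sum went from 63.5 to 1862 CPM, a ratio of 29.3. In Meevs mock embryos the ratios were 3.35 for beta and 16.4 for gamma M2. The gamma M2 sum therefore stood at 0.125 ± 0.0158 of the beta sum in wild type mock embryos at 29 hpf and at 0.842 ± 0.112 at 48 hpf (ratio of summed counts, SD, n = 3). Every 48 hpf library, from 0.605 upward, lay above every 29 hpf library, the highest of which was at 0.236.

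In the test of each gene, 41 of the 45 tested crystallins were higher at 48 than at 29 hpf in wild type mock embryos and 0 were lower. The share called among all tested genes was 63.7%, the share called higher was 30.2% and the share called lower 33.5%. Libraries of the stages did not overlap for these 41, as they did not for 32.5% of all genes in this direction and 35.9% in the other. Of the 39 genes that pass on the 29 hpf libraries alone, 35 were higher. The median log2 fold change of these 39 was 3.85, beside -0.04 over all tested genes. Not called were cryabb (-0.86 ± 0.42), crybb3 (-0.37 ± 0.48), crybg1a (-0.13 ± 0.09) and crybg1b (-0.21 ± 0.11). The count was again 41 without the 4 libraries named above.

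Of the alpha crystallins, cryaa on chromosome 1, the lens alpha A chaperone, stood at 0.384, 1.06 and 0.602 CPM in the wild type mock libraries at 29 hpf. At 48 hpf it reached 17.7, 22 and 12.4 CPM, far above all of the earlier libraries. Its rise was 4.67 ± 0.38 (edgeR adjusted p = 4.63e-11), and in Meevs mock embryos it was 4.66 ± 0.39. The alpha B gene cryabb, which is also expressed outside the lens, behaved differently. It stood at 0.32, 0.717 and 0.451 CPM at 29 hpf and at 0.215, 0.159 and 0.444 CPM at 48 hpf, ranges that overlap. Its log2 fold change in Meevs mock embryos was 0.77 ± 0.46, and neither change passed the test. At most 26 counts of cryabb were seen in a library, and it overlaps a gene on the other strand.

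Among the 12 beta crystallins, structural proteins of the lens fibre, 11 were called higher in wild type mock embryos. The median log2 fold change over the 12 was 2.13, and the called ones lay between 1.14 and 2.90. The most strongly raised was cryba2b, which stood at 25.9, 35.2 and 29.7 CPM at 29 hpf and at 207, 255 and 214 CPM at 48 hpf. That is a log2 fold change of 2.90 ± 0.16 (edgeR adjusted p = 2.46e-14). The smallest of the called rises was that of cryba1l2, at 1.14 ± 0.21, from 7.4, 10.1 and 9.59 CPM to 16.2, 26.1 and 17.6 CPM. Between these lay crybb1l2 (2.43 ± 0.23), cryba2a (2.42 ± 0.19), cryba4 (2.41 ± 0.21), cryba1a (2.33 ± 0.44) and cryba1l1 (2.21 ± 0.24). Lower in this order were cryba1b (2.06 ± 0.26), crybb1l1 (1.94 ± 0.27), crybb1l3 (1.87 ± 0.32) and crybb1 (1.71 ± 0.29). Most of these neighbours in the order differ by less than their SE.

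The exception was crybb3, a beta B gene on chromosome 5 read at 34 counts or fewer. Its levels were 0.768, 0.854 and 0.188 CPM at 29 hpf and 0.323, 0.254 and 0.856 CPM at 48 hpf in wild type mock embryos, and the libraries of the stages overlap. In Meevs UVB embryos it was called lower, at -1.66 ± 0.54 (edgeR adjusted p = 0.00863). There its 29 hpf libraries stood at 0.883, 0.848 and 0.691 CPM and its 48 hpf libraries at 0.367, 0.377 and 0.0664 CPM, without overlap. This call was lost without the 4 libraries.

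Several beta genes lie next to each other in pairs of a beta A and a beta B gene that are transcribed away from each other. On chromosome 14, crybb1l1 (46301973 to 46310549, minus strand) and cryba1l1 (46313135 to 46321016, plus strand) are 2585 bases apart. On chromosome 1, cryba1l2 (44421920 to 44434707, minus strand) and crybb1l2 (44439661 to 44448387, plus strand) are 4953 bases apart. On chromosome 10, crybb1 (44021147 to 44027391, minus strand) and cryba4 (44042033 to 44051808, plus strand) are 14641 bases apart, and the human orthologues of this pair are neighbours too. Within the pair on chromosome 1 crybb1l2 rose by 2.43 ± 0.23 and cryba1l2 by 1.14 ± 0.21, a difference that was not tested.

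Gamma M2 genes encode the structural crystallins of the fish lens core. Leaving out crygm2d11, crygm2d15 and crygm2f, which passed the filter only through their 48 hpf counts, 19 of 19 copies were called higher at 48 hpf in wild type mock embryos and in each of the other 3 pairs of groups. The median log2 fold change of these 19 in wild type mock embryos was 5.45. Their range ran from 3.85 for crygm2d17 (ENSDARG00000109861) to 7.01 for crygm2d9. The lowest of them thus lay above the highest beta value, 2.90. The copy crygm2d9 went from 0.192, 0.615 and 0.301 CPM to 46.8, 48.9 and 47.6 CPM, with libraries that do not overlap (7.01 ± 0.27, edgeR adjusted p = 1.53e-17).

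Next came crygm2d16 (6.92 ± 0.36), crygm2d2 (6.83 ± 0.21) and crygm2d14 (6.40 ± 0.32). The copy crygm2d2 stood at 0.64, 1.09 and 0.714 CPM at 29 hpf and at 92.8, 99.8 and 87.8 CPM at 48 hpf. At the other end, crygm2d17 (ENSDARG00000109861), the gamma M2 gene of highest mean CPM, went from 10.4, 17 and 12.5 CPM to 189, 212 and 174 CPM. Other gamma M2 genes of high mean CPM were crygm2d13 (4.85 ± 0.25), crygm2d8 (4.29 ± 0.23) and crygm2d1 (5.08 ± 0.24).

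The low-count copies were nearly silent at 29 hpf. Over the 3 wild type mock libraries crygm2d15 had 8 counts at 29 hpf and 2469 at 48 hpf, and crygm2d11 had 2 and 548. The overlapping genes crygm2f and crygm5 had 1 count each at 29 hpf, then 40 and 86. The lens genes crygmxl1 and crybgx followed this pattern, with 2 counts each at 29 hpf and then 217 and 47.

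**Figure D2:**
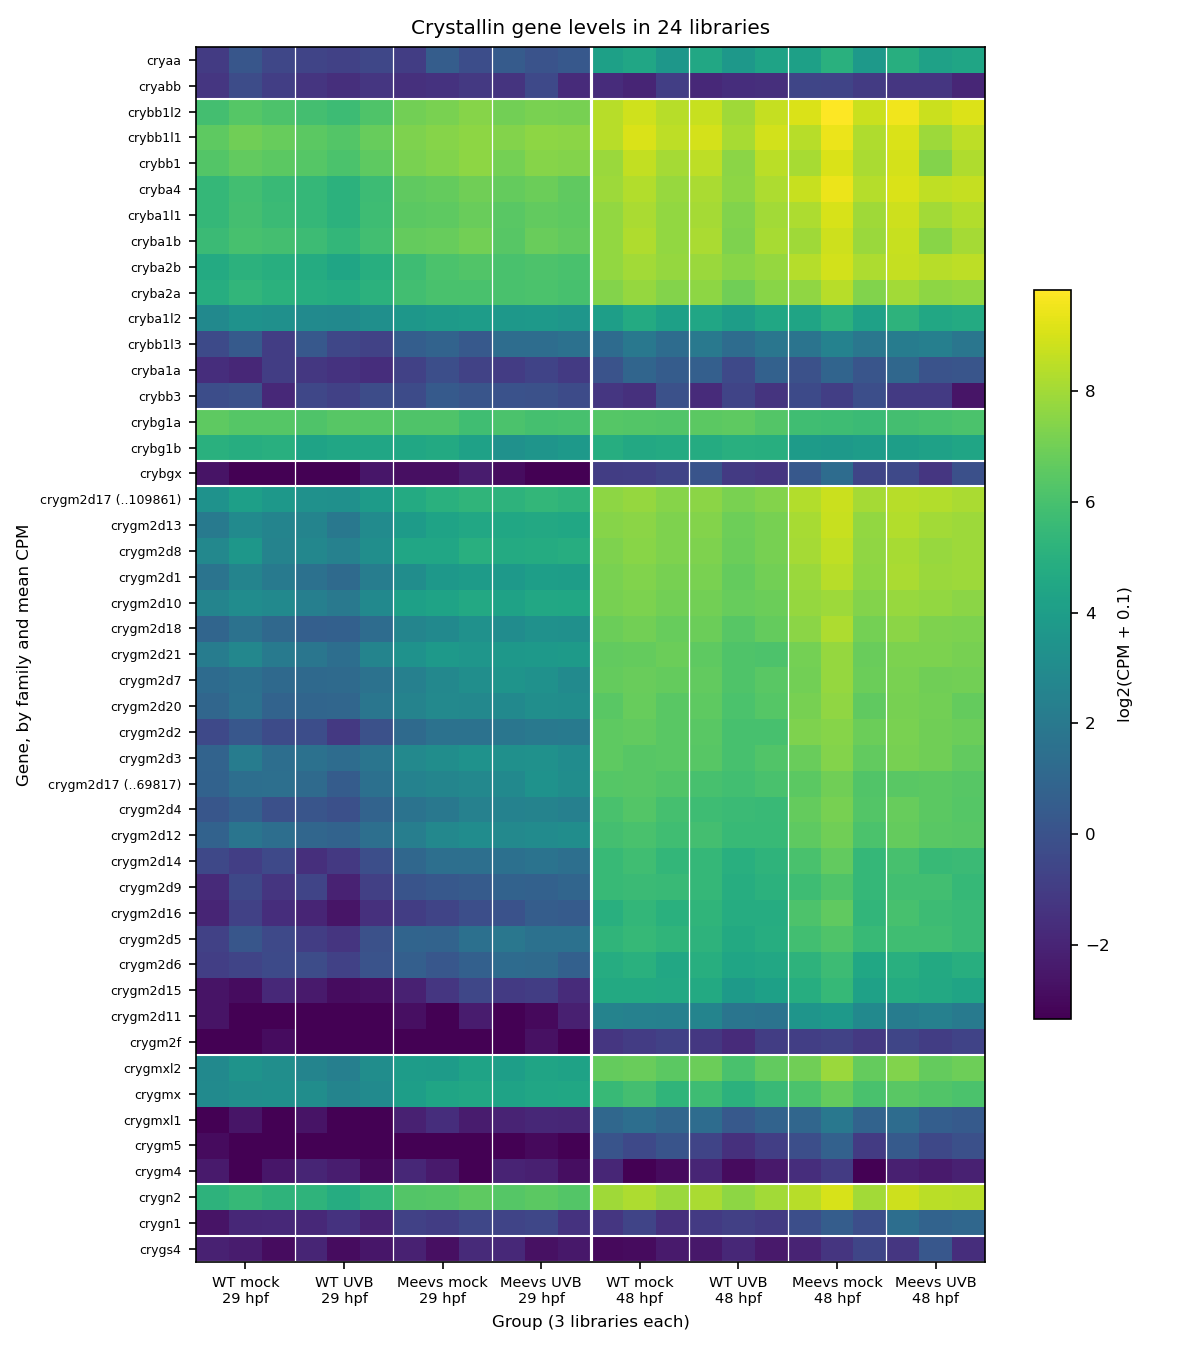
Log2 of CPM plus 0.1 for all 47 crystallin genes (rows, grouped by family and ordered by mean CPM, with the last digits of the identifier where a symbol is used for 2 genes) in 24 libraries (columns, 3 for each group, 29 hpf left of the thick line). Most gamma M2 rows are dark at 29 hpf and bright at 48 hpf. Most beta rows are lit at both stages, while crybb3, cryba1a and crybb1l3 are dimmer than the other beta rows. The rows of crybg1a and crybg1b lack the rise of the gamma M2 rows.

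As the family rose, its makeup shifted. The share of all gamma M2 counts that came from crygm2d17 (ENSDARG00000109861) was 19.5% on average over the 12 libraries at 29 hpf (17.6% to 23%) and 11.1% at 48 hpf (9.96% to 12.3%). The share of crygm2d2 went from 1.45% (0.853% to 1.99%) to 4.91% (4.22% to 5.53%). Over the 22 copies, 10 had a share at 48 hpf above all of the 29 hpf libraries. For 3, crygm2d17 (ENSDARG00000109861), crygm2d8 and crygm2d10, it was below all of them, and for the other 9 the ranges overlapped. Among the 10 were crygm2d11 and crygm2d15, which passed the filter only through their counts at 48 hpf. Their higher shares at 48 hpf follow from that and show no shift by themselves. These shares are descriptions without a test, and they would move if reads were shared unequally between copies.

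The gamma genes outside the cluster with enough counts rose less. The gamma N gene crygn2 on chromosome 24, of a family intermediate between beta and gamma, stood at 35.6, 44.8 and 37.9 CPM in wild type mock embryos at 29 hpf and at 248, 299 and 230 CPM at 48 hpf. Its rise was 2.71 ± 0.19 (edgeR adjusted p = 2.35e-12), within the range of the beta genes. On chromosome 12, crygmx rose by 2.48 ± 0.19 and its neighbour crygmxl2 by 3.51 ± 0.25. The second gamma N gene, crygn1, was read at 63 counts or fewer and rose by 1.39 ± 0.48 (edgeR adjusted p = 0.0134). It overlaps the gene ly97.3 on the other strand.

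**Figure D3:**
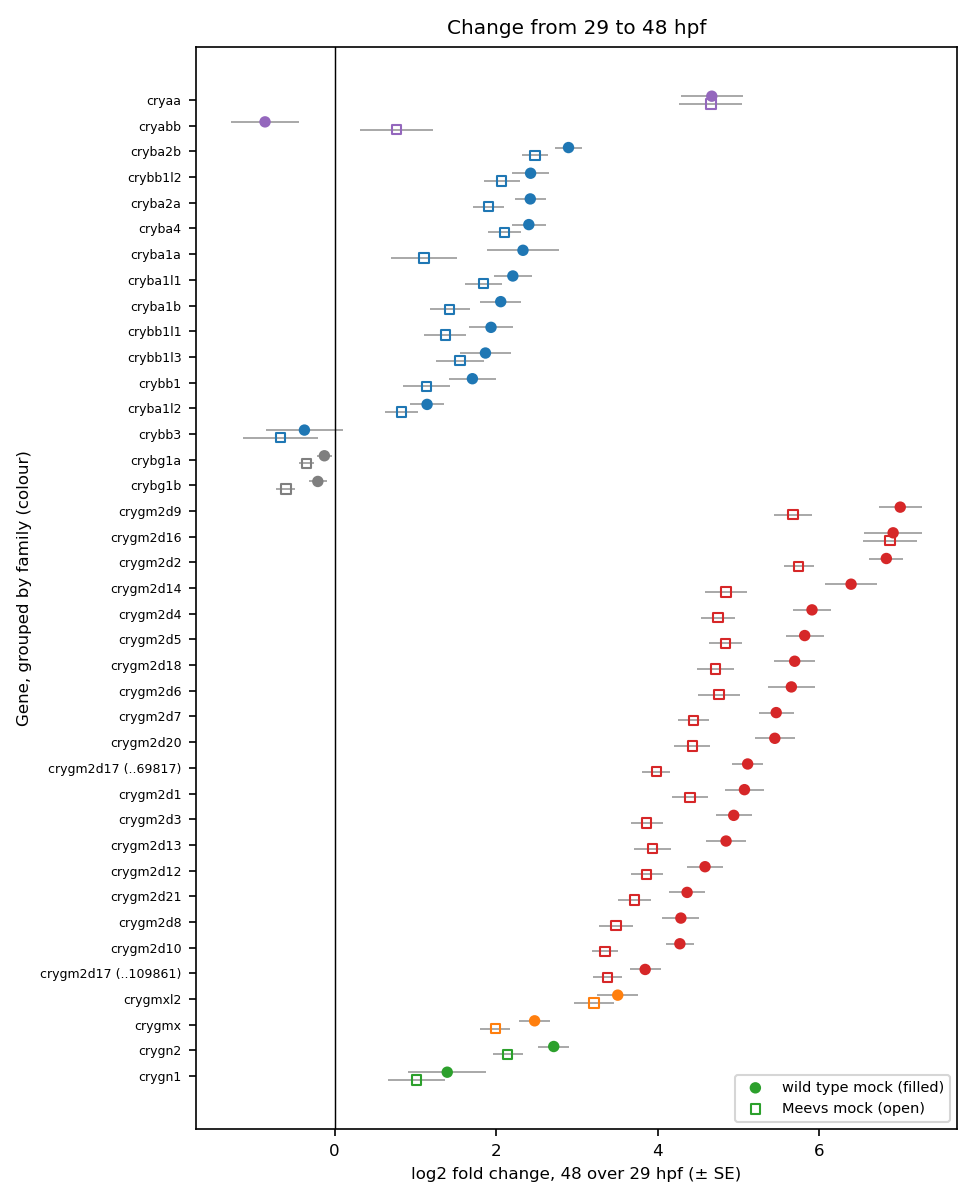
Log2 fold change from 29 to 48 hpf (± SE) of the 39 crystallin genes with at least 10 counts in each wild type mock group, in wild type mock (filled circles) and Meevs mock embryos (open squares), coloured by family. Gamma M2 genes (red) lie between 3.85 and 7.01 in wild type, to the right of all beta genes (blue), and most open squares lie to the left of their circles.

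In the other 3 pairs of groups the direction was the same for most genes. In Meevs mock embryos 41 of 45 were higher and 2 lower at 48 hpf (60.2% of all genes called, 28.7% higher and 31.5% lower). The lower ones were crybg1a (-0.35 ± 0.09) and crybg1b (-0.60 ± 0.12). In wild type UVB embryos 42 were higher and 0 lower (68.5%, 34.1% and 34.4%), and in Meevs UVB embryos 42 were higher and 1, crybb3, lower (68.8%, 35% and 33.8%). The totals without the 4 libraries were 42, 41 and 43. Of the 39 genes that pass on the 29 hpf libraries alone, 35, 36 and 36 were higher in Meevs mock, wild type UVB and Meevs UVB embryos. The medians of the 19 gamma M2 copies among them were 4.43, 5.07 and 3.81, and the beta medians 1.49, 2.2 and 1.55. The largest rises among them in Meevs were those of crygm2d16 (6.88 ± 0.33) and crygm2d2 (5.75 ± 0.18) in mock embryos. In UVB embryos they were again crygm2d16 (5.51 ± 0.29) and crygm2d2 (5.07 ± 0.17).

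The genes crybg1a on chromosome 17 and crybg1b on chromosome 4 did not share the rise. In wild type mock embryos crybg1a stood at 93.1, 81.4 and 82.5 CPM at 29 hpf and at 82.3, 78.2 and 74.8 CPM at 48 hpf, with overlap. Under UVB, crybg1b was higher at 48 than at 29 hpf in wild type (0.48 ± 0.11) and in Meevs (0.67 ± 0.12), whereas in Meevs mock embryos it was lower.

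Other genes of the lens and eye field were read alongside, with 30.2% of all tested genes called higher and 33.5% lower at 48 hpf in wild type mock embryos. Of 14 tested genes for membrane, cytoskeletal and enzyme proteins of the lens, 11 rose and 1, the connexin gene gja8b (-1.19 ± 0.19), fell from 29 to 48 hpf in wild type mock embryos. Among those that rose were lim2.5 (4.17 ± 0.32) and lim2.4 (2.36 ± 0.18), fibre membrane genes, bfsp2 (4.16 ± 0.33), which encodes a beaded filament protein, and grifin (2.82 ± 0.24), a lens galectin. Of 15 transcription factor and regulator genes of the lens and eye field, 7 rose, prox1a (1.28 ± 0.11) and six3a (0.70 ± 0.08) among them. A further 5 fell, including foxe3 (-1.33 ± 0.24), a gene of the lens epithelium, and sox2 (-0.45 ± 0.07). None of the 14 lens structural genes was at 0 in any group. The libraries are of whole embryos, so changes of the regulators cannot be placed in the lens.

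Other gene lists were read in the same comparison, where 63.7% of all tested genes were called, 30.2% higher and 33.5% lower. Of 18 retina and photoreceptor genes 11 rose and 3 fell, of 16 striated muscle genes 11 rose and 4 fell, and of 9 epidermis genes 5 rose and 2 fell in wild type mock embryos. Of 9 small heat shock genes outside the crystallins 3 rose and 4 fell. Of 4 further genes with cry in their names, such as the enzyme gene cryl1, 0 rose and 2 fell.

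The second comparison set Meevs against wild type embryos at the same stage and treatment. At 29 hpf crystallin levels were higher in Meevs. The summed level was 1345 ± 154 CPM in Meevs mock embryos (1198, 1332 and 1506 CPM) against 739.6 ± 87.5 CPM in wild type, without overlap. Without crybg1a and crybg1b the sum was 1256 ± 166 CPM in Meevs and 623.3 ± 95.0 CPM in wild type. By family, the beta sum was 1.90 times and the gamma M2 sum 2.81 times the wild type mean. In UVB embryos, at 1340 ± 82.6 against 643.9 ± 94.6 CPM, the ratios were 2.12 and 3.89.

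In mock embryos at 29 hpf 32 of 45 tested crystallins were higher and 2 lower in Meevs, while 47.7% of all tested genes were called, 24.5% higher and 23.2% lower. Libraries of the genotypes did not overlap for 33 genes higher and 2 lower in Meevs, beside 27.9% and 25.1% of all genes. Of the 39 genes with enough counts the median difference was 1.18, beside 0.03 over all genes. The median was 1.53 for 19 gamma M2 copies, of which 18 were called, and 0.94 for the 12 beta genes. The counts without the 4 libraries were 28 higher and 2 lower.

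Genes with enough counts and the largest differences were crygm2d14 (2.11 ± 0.47), crygm2d4 (1.82 ± 0.32), crygn1 (1.81 ± 0.49), crygm2d18 (1.77 ± 0.29) and crygm2d2 (1.73 ± 0.31). The gamma N gene crygn1 had few counts here, 2, 5 and 5 in wild type and 11, 9 and 12 in Meevs. The copy crygm2d4 stood at 1.02, 1.54 and 0.827 CPM in wild type against 3.15, 3.68 and 5.32 CPM in Meevs, without overlap. For crygm2d17 (ENSDARG00000109861) the Meevs libraries, at 25.7, 32.2 and 39.1 CPM, also lay above all wild type ones (1.28 ± 0.19, edgeR adjusted p = 4.18e-06).

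Beta genes differed by less. At 29 hpf in mock embryos cryba4, a beta A gene, stood at 42.9, 56.3 and 47.5 CPM in wild type against 98.1, 106 and 126 CPM in Meevs. That difference of 1.17 ± 0.21 (edgeR adjusted p = 4.6e-05) was the largest of the beta genes, followed by cryba1a (1.13 ± 0.53, not called) and cryba2b (1.12 ± 0.16). Also called were crybb1l2 (1.08 ± 0.22), cryba1b (0.99 ± 0.25), cryba1l1 (0.98 ± 0.23), crybb1l3 (0.90 ± 0.37), cryba2a (0.89 ± 0.19) and crybb1 (0.87 ± 0.29). The smallest calls were crybb1l1 (0.65 ± 0.26) and cryba1l2 (0.61 ± 0.22), and crybb3 (0.66 ± 0.46) was not called. The alpha genes did not pass, with cryaa at 0.32 ± 0.63 and cryabb at -0.75 ± 0.46. The SE of cryaa is wide at 29 hpf, where its libraries held few counts.

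In the opposite direction, crybg1a and crybg1b were lower in Meevs in all 4 comparisons. For crybg1b the mock libraries at 48 hpf stood at 29.1, 24.5 and 26 CPM in wild type against 14.9, 13.6 and 15.3 CPM in Meevs (-0.87 ± 0.11, edgeR adjusted p = 6.53e-07). For crybg1a the difference there was -0.57 ± 0.09. At 29 hpf in mock embryos the differences were -0.47 ± 0.11 for crybg1b and -0.35 ± 0.09 for crybg1a.

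In UVB embryos at 29 hpf 35 of 45 tested crystallins were higher and 2 lower in Meevs (50.3% of all genes called, 27.3% higher and 23% lower). Of the 39 genes with enough counts 33 were higher and 2 lower. The gamma M2 median was 1.97 over 19 copies and the beta median 1.04. The largest differences among genes with enough counts were those of crygm2d16 (2.74 ± 0.64), crygm2d14 (2.52 ± 0.42), crygm2d2 (2.46 ± 0.27) and crygm2d5 (2.45 ± 0.31). Among beta genes crybb1l3 differed most, at 1.82 ± 0.32. It stood at 1.14, 0.594 and 0.494 CPM in wild type against 2.5, 2.47 and 2.84 CPM in Meevs, without overlap, but it overlaps cryba1a on the other strand. When the 4 libraries were left out 32 were higher and 2 lower.

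At 48 hpf the differences were smaller and the libraries of Meevs spread more widely. In mock embryos the summed level was 6030, 9480 and 4958 CPM in Meevs, so that replicate 2 stood far above the other replicates and replicate 3 within the wild type range of 4224 to 5412 CPM. In total 26 crystallins were higher and 2 lower (52.7% of all genes called, 26.5% higher and 26.2% lower). The gamma M2 median was 0.58 and the beta median 0.37. Libraries without overlap were found for 17 genes higher and 2 lower in Meevs, beside 31% and 30.5% of all genes. Without replicate 2 of Meevs mock the total of 28 called became 19, and without replicate 3 it became 34. Leaving out the 4 libraries gave 29 higher and 2 lower.

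The genes with the largest differences at 48 hpf in mock embryos were crybgx (1.58 ± 0.46), crygn1 (1.43 ± 0.34), crygm2d11 (1.01 ± 0.22) and crygm2d16 (0.98 ± 0.19). For crybgx counts were few, at 16, 14 and 17 in wild type and 30, 93 and 13 in Meevs, with replicate 2 of Meevs far above the others. Called beta genes were cryba4 (0.87 ± 0.20), crybb1l2 (0.72 ± 0.21), cryba2b (0.70 ± 0.15) and cryba1l1 (0.62 ± 0.22). For cryba2b all Meevs libraries, at 329, 477 and 293 CPM, lay above the wild type ones, at 207, 255 and 214 CPM. For crybb1l1 they did not, at 337, 686 and 309 CPM against 344, 541 and 370 CPM (0.09 ± 0.26).

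In UVB embryos at 48 hpf 27 were higher and 2 lower (55.8% of all genes called, 28.5% higher and 27.4% lower), with medians of 0.74 for gamma M2 and 0.40 for beta. The largest difference was that of crygn1, at 0.366, 0.461 and 0.384 CPM in wild type against 2.57, 1.7 and 2.03 CPM in Meevs (2.37 ± 0.31, edgeR adjusted p = 6.16e-07). This gene was read at 63 counts or fewer and overlaps ly97.3 on the other strand, so its reads may not all be its own. Further called genes were crygm5 (1.08 ± 0.44), crygm2d1 (0.99 ± 0.18), crygm2d17 (ENSDARG00000109861) (0.93 ± 0.16) and crygm2d13 (0.92 ± 0.20). Of these, crygm5 had few counts, 21, 9 and 15 in wild type and 30, 13 and 25 in Meevs. It overlaps crygm2f on the same strand. With the 4 libraries left out 30 were higher and 2 lower.

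**Figure D4:**
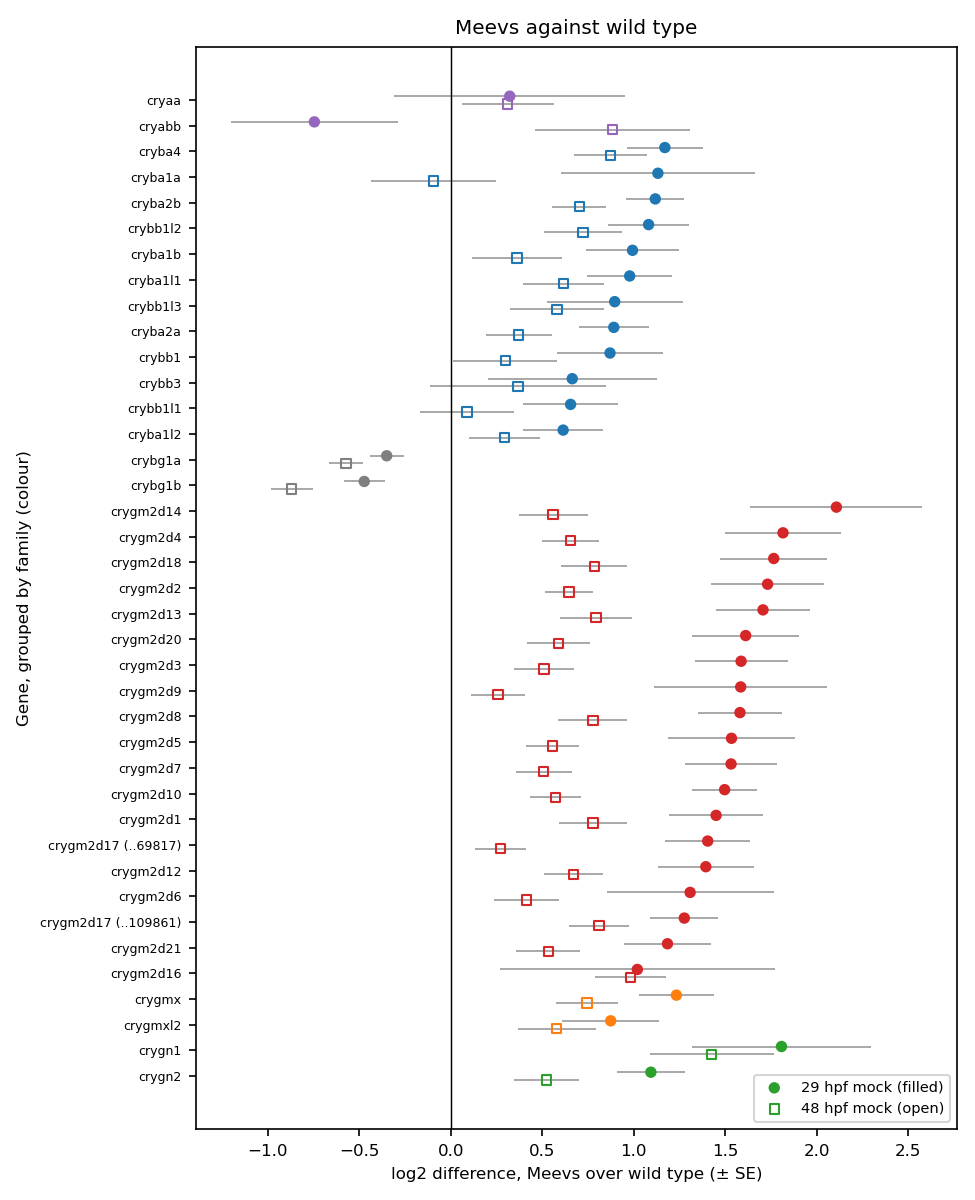
Log2 difference of Meevs over wild type (± SE) in mock embryos at 29 hpf (filled circles) and 48 hpf (open squares) for the 39 crystallin genes with enough counts at 29 hpf, coloured by family. Gamma M2 genes (red) lie at 1.02 to 2.11 at 29 hpf with most open squares below 1, and crybg1a and crybg1b (grey) are the called genes left of 0.

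Other gene lists were read between the genotypes at 29 hpf, where 24.5% of all tested genes were higher and 23.2% lower in Meevs mock embryos. Of 14 lens structural genes 3, lim2.4 (1.08 ± 0.18), lim2.1 (1.02 ± 0.18) and lim2.3 (1.12 ± 0.25), were higher in Meevs mock embryos and 0 were lower. In UVB embryos 10 were higher, beside 27.3% of all genes. The summed level of the 14 lay at 112 to 132 CPM in wild type and 161 to 175 CPM in Meevs mock embryos. Of 15 lens and eye field regulators 0 were higher and 6 lower in mock embryos, led by pax6b (-0.77 ± 0.09) and mafa (-0.51 ± 0.10). In UVB embryos 2 of these regulators, pitx3 and hsf4, were higher and 5 lower, beside 27.3% and 23% of all genes. Whole embryos do not show in which tissue these regulators differed.

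Outside the eye, 12 of 16 striated muscle genes were higher and 1 lower in Meevs mock embryos at 29 hpf, with sums of 20107 to 23874 CPM in wild type and 30311 to 38478 CPM in Meevs. Of 9 epidermis genes 7 were higher and 0 lower, with sums of 17254 to 18925 CPM and 24498 to 26350 CPM. Among 18 retina genes 4 were higher and 2 lower, and the small heat shock genes gave 1 and 2 of 9. These counts stand beside 24.5% higher and 23.2% lower among all genes. Of the 4 other genes with cry in their names 2 were higher. None of the muscle or epidermis genes was at 0 in any group. Their part in the crystallin difference was not tested.

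Whether the rise itself differed between genotypes was tested as the difference of the changes from 29 to 48 hpf. In mock embryos 0 of 45 crystallins were called by edgeR and 0 by DESeq2, where edgeR called 0.00895% of all genes, all lower. At an unadjusted p under 0.05 there were 19, but the share of all genes at that threshold was not computed, so this count is not read further. The median difference over the 39 genes with enough counts was -0.57, meaning a smaller log2 rise in Meevs. The copy with the lowest value was crygm2d14 (-1.55 ± 0.51, edgeR adjusted p = 0.402). Without replicate 2 of Meevs mock at 48 hpf 2 were called.

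The same difference in UVB embryos was tested after the mock result had been seen. There 20 of 45 were called, all with the smaller log2 rise in Meevs. Of all genes 13.7% were called, 6.58% in this direction and 7.16% in the other. The 20 were 17 gamma M2 copies with crybb1l1, crybb1l3 and crygmxl2. Over the 39 genes with enough counts the median was -0.97, beside -0.57 in mock embryos. Whether the difference between the genotypes in the rise depended on UVB was not tested. The copies with the lowest values were crygm2d14 (-1.98 ± 0.48), crygm2d5 (-1.65 ± 0.35), crygm2d18 (-1.64 ± 0.34), crygm2d2 (-1.62 ± 0.31) and crygm2d17 (ENSDARG00000069817) (-1.52 ± 0.25). For crygm2d2 the wild type UVB libraries went from 0.771, 0.349 and 0.87 CPM to 87.5, 63.6 and 63.5 CPM. Its Meevs UVB libraries went from 3.5, 3.82 and 4.23 CPM to 146, 126 and 115 CPM, higher at both stages. The count without the 4 libraries was 15. The count was 10 without replicate 2 and 13 without replicate 1 of wild type UVB at 29 hpf, and 12 without replicate 1 of wild type UVB at 48 hpf. It was 12 without replicate 2 of Meevs UVB at 29 hpf and 13 without replicate 3 of Meevs UVB at 48 hpf.

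The third comparison asked what UVB changed. Few crystallin calls were made in either genotype, and the gene with a change at 29 hpf in both was crybg1b, which is not a lens crystallin. In wild type at 29 hpf it was the only crystallin-named gene called, where 12.7% of all genes were called, 6.67% higher and 6.06% lower. It stood at 32.8, 28.7 and 30.6 CPM without and at 19.7, 21.6 and 22.2 CPM with UVB, without overlap (-0.54 ± 0.11, edgeR adjusted p = 0.00156). In Meevs it went from 22.9, 25.3 and 18 CPM to 10.1, 11.4 and 13.4 CPM, again without overlap (-0.93 ± 0.12, edgeR adjusted p = 7.04e-07). It was called in each of the 6 fits that left out 1 library of the groups compared, in both genotypes. The difference between the genotypes' effects on crybg1b did not pass (-0.39 ± 0.16, edgeR adjusted p = 0.172).

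For the lens crystallins of wild type embryos at 29 hpf no call was made. The log2 fold changes of the 12 beta genes lay between -0.24 (crybb1l1) and 0.08 (cryba1a), with a median of -0.17, and the gamma M2 median was -0.19. The summed level of all crystallins was 739.6 ± 87.5 CPM without and 643.9 ± 94.6 CPM with UVB, with libraries that overlap. Counting crybg1b, 2 genes were called without the 4 libraries and also without replicate 3 of wild type UVB, both lower.

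In wild type at 48 hpf 0 of 45 were called by edgeR or by DESeq2, beside 2.24% of all genes in edgeR (1.74% higher, 0.506% lower). An unadjusted p under 0.05 was found for 7, and the share of all genes at that threshold was not computed. The gamma M2 values were all below 0, from -0.44 to -0.15 with a median of -0.28, and the beta median was -0.03. Of the 45, 10 had UVB libraries entirely below the mock libraries, beside 9.88% of all genes, and 9 of these were gamma M2 copies. For crygm2d2 the UVB libraries, at 87.5, 63.6 and 63.5 CPM, lay just below the lowest mock library at 87.8 CPM (-0.38 ± 0.13, edgeR adjusted p = 0.144). The count became 4 when only these 6 libraries were fitted, 3 without the 4 libraries and 3 without replicate 1 of wild type UVB, each time lower.

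In Meevs at 29 hpf 2 crystallins were called higher with UVB, crybb1l3 (0.86 ± 0.31, edgeR adjusted p = 0.0338) and crygm2d17 (ENSDARG00000069817) (0.53 ± 0.19, edgeR adjusted p = 0.0337), and crybg1b was lower. Of all genes 34.4% were called, 19.1% higher and 15.3% lower. The levels of crybb1l3 were 1.42, 1.7 and 1.15 CPM without and 2.5, 2.47 and 2.84 CPM with UVB, and did not overlap. Each of the 2 higher calls was kept in 1 of the 6 fits that left out 1 library, with adjusted p up to 0.155 and 0.255, and neither was kept without the 4 libraries. The 3 calls fell to 1 without replicate 2 or 3 of Meevs UVB or replicate 1 of Meevs mock. The gamma M2 median was 0.30 and the beta median -0.07.

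In Meevs at 48 hpf crygn1 was higher with UVB, at 0.785, 1.35 and 0.782 CPM without and 2.57, 1.7 and 2.03 CPM with UVB, without overlap (1.07 ± 0.28, edgeR adjusted p = 0.00758). As said above, crygn1 overlaps ly97.3 on the other strand. The copy crygm2d11 was lower, at 11.3, 13.8 and 7.56 CPM and then 4.45, 5.09 and 4.22 CPM, also without overlap (-1.27 ± 0.23, edgeR adjusted p = 0.000203). Small rises of crybg1a (0.27 ± 0.09) and crybg1b (0.34 ± 0.12) were called as well. That made 4 calls, 3 higher and 1 lower, beside 20.4% of all genes (11.5% higher, 8.84% lower). The calls of crybg1a and crybg1b were lost without the 4 libraries. The call of crygm2d11 held in 6 of 6 fits without 1 library, that of crygn1 in 4, and those of crybg1a and crybg1b in 1 each. With DESeq2 size factors and in DESeq2 itself 2 calls were made. The total lay between 1, without replicate 1 of Meevs mock, and 11, without replicate 3 of that group, and was 2 without replicate 2 or 3 of Meevs UVB. The gamma M2 sum was 2929 ± 891 CPM without and 2642 ± 273 CPM with UVB.

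**Figure D5:**
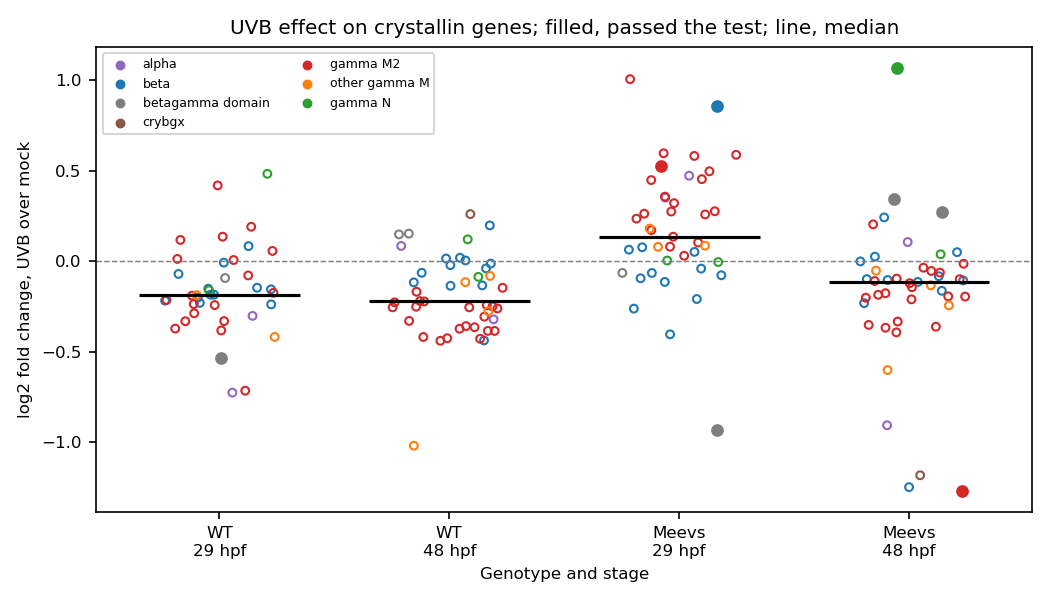
Log2 fold change of UVB over mock for each crystallin gene with enough counts, in wild type and Meevs embryos at 29 and 48 hpf; filled points passed the test, open ones did not, colours are families and lines are medians. Most points lie within 0.5 of 0, filled points number 1, 0, 3 and 4 from left to right, and the grey filled points below 0 are crybg1b at 29 hpf.

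The difference between the genotypes' UVB effects was tested for each gene. At 29 hpf 0 of 45 were called by edgeR and 0 by DESeq2 (edgeR called 5.12% of all genes, 2.02% higher and 3.09% lower), and 1 had an unadjusted p under 0.05. The median over 39 genes was 0.30. Leaving out the 4 libraries gave 2 calls, and leaving out replicate 3 of Meevs mock gave 1. At 48 hpf 0 were called by either tool (2.4% of all genes in edgeR, 1.66% higher and 0.739% lower), and 2 had an unadjusted p under 0.05. There crygm2d11 differed by -0.88 ± 0.32 (edgeR adjusted p = 0.186) and crygn1 by 0.95 ± 0.48 (edgeR adjusted p = 0.402). The share of all genes at an unadjusted p under 0.05 was not computed at either stage.

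Among other eye genes, the lens structural list held 0 UVB calls in wild type at both stages and in Meevs at 29 hpf. It held 1 in Meevs at 48 hpf, grifin (0.55 ± 0.18). The shares called among all genes were 12.7% and 2.24% in wild type at 29 and 48 hpf and 34.4% in Meevs at 29 hpf. In Meevs at 48 hpf the retina list held 2 higher and 9 lower genes of 18. Among the lower ones were the photoreceptor genes rho (-2.83 ± 0.30) and sagb (-2.01 ± 0.21). Both were also lower with UVB in wild type at 48 hpf, rho at -1.27 ± 0.26 and sagb at -0.85 ± 0.19. In that comparison 0 retina genes were higher and 2 lower, beside 1.74% and 0.506% of all genes. The difference between the genotypes was called for both, at -1.56 ± 0.40 for rho and -1.16 ± 0.29 for sagb (edgeR adjusted p = 0.035 and 0.0233). The sum of the 19 retina genes counted lay at 389 to 404 CPM without and 237 to 290.0 CPM with UVB in Meevs at 48 hpf. Of the 9 small heat shock genes, the family to which the alpha crystallins belong, 6 were higher and 0 lower there, with hspb11 at 2.43 ± 0.21, while cryaa stood at 0.11 ± 0.25 and cryabb at -0.91 ± 0.45. Of 16 muscle genes 2 were higher and 0 lower, of 9 epidermis genes 3 were higher and 5 lower, and of 15 lens and eye field regulators 0 were higher and 2 lower. Among all genes 11.5% were higher and 8.84% lower with UVB in Meevs at 48 hpf.

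Libraries of a group that were high in 1 crystallin tended to be high in most. Over the 43 tested genes other than crybg1a and crybg1b, replicate 2 of Meevs mock at 48 hpf was the highest of its group in 41, and replicate 3 was the lowest in 39. In Meevs UVB at 48 hpf replicate 1 was the highest in 37, and in wild type UVB at 48 hpf it was the highest in 35 and replicate 2 the lowest in 35. In Meevs UVB and wild type UVB at 48 hpf the highest library held 1.75 and 1.68 times the beta sum of the lowest, but 1.22 and 1.32 times the gamma M2 sum. In Meevs UVB embryos at 48 hpf crybb1 stood at 509, 166 and 300 CPM, whereas crygm2d17 (ENSDARG00000109861) stood at 338, 316 and 287 CPM. The genes of a library are therefore not independent of each other, and counts of calls over the family describe 3 libraries a group rather than separate pieces of evidence.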

How the data were processed

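Whole numbers of reads per gene (counts) were deposited by the authors in 1 table of 24 libraries, without normalization. RNA was extracted with Trizol and sequenced from directional polyA libraries, per the labels' protocols. The build was GRCz11, per the submitters' processing notes, which also name DESeq2 1.36.0, featureCounts 1.6.3, STAR 2.7.9a and cutadapt 1.16. Not given in the sources used here were the strand setting and the treatment of reads that match several copies.

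Counts were scaled with TMM, filtered with filterByExpr by group and fitted in edgeR 4.0.16 (R 4.3.3) with 1 mean per group over all 24 libraries. The 16 contrasts went through its quasi-likelihood F-test with adjustment by Benjamini-Hochberg over 22340 genes, with calls at an adjusted p under 0.05. The SE is the size of the log2 fold change divided by the square root of F. The fit was tested on simulated data. Alternatives were DESeq2 1.42.0, other scalings, no filter, the compared libraries alone, a replicate block and libraries left out.

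Replicates differed by a chi-square per degree of freedom of 4.20 to 23.0 at mean counts of 10 or more, so none was counted as a repeat. The replicate numbers of the labels did not pair the libraries, since in no contrast did all 3 correlations of deviations exceed 0.1.

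The members and the gene lists were chosen with earlier results of these data known. Alpha and beta genes, the 5 gamma genes of highest mean CPM, and up to 5 called genes with the largest rise and the largest fall in a contrast were to be named, and genes beyond these were chosen after their values were seen. The minimum of 10 summed counts for a fold change was set after seeing the data.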

Additional observations from a re-analysis of the deposited data

Results flagged for a closer look

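The change from 29 to 48 hpf under UVB differed between the genotypes for 20 crystallin genes, by the test of the difference itself. That test was added after seeing the data. Of all genes 13.7% were called in it, 6.58% lower and 7.16% higher. Each of the 20 crystallin genes had a smaller log2 rise in Meevs. In CPM, however, the means of all gamma M2 copies among them and of crygmxl2 rose by more in Meevs. Only those of crybb1l1 and crybb1l3 rose by less in CPM. The mean of crygm2d2 went from 0.663 to 71.5 CPM in wild type UVB embryos and from 3.85 to 128.7 CPM in Meevs UVB embryos. That of crybb1l1 went from 92.5 to 420 CPM in wild type and from 180 to 379 CPM in Meevs. The log2 differences were -1.98 for crygm2d14, -1.65 for crygm2d5, -1.64 for crygm2d18, -1.62 for crygm2d2, -1.52 for crygm2d17 (ENSDARG00000069817) and -1.47 for crygm2d9. They were -1.31 for crygm2d7, -1.26 for crygm2d6, -1.25 for crygm2d4, -1.20 for crygm2d1, -1.16 for crygm2d10, -1.13 for crygm2d8 and -1.12 for crygm2d20. For the remaining copies they were -1.05 for crygm2d13, -1.0 for crygm2d12, -0.97 for crygm2d3 and -0.82 for crygm2d17 (ENSDARG00000109861). Outside the cluster they were -1.41 for crybb1l3, -1.10 for crybb1l1 and -1.02 for crygmxl2. Leaving out 1 library at a time, between 10 and 26 genes were called. In mock embryos 0 crystallin genes were called, where 0.00895% of all genes were. The median over 19 gamma M2 copies was -0.98 in mock embryos, beside -1.25 with UVB. Whether the difference between the genotypes in the rise depended on UVB was not tested.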

How the results depend on the processing

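No called crystallin changed direction under the alternatives run. For the UVB effect in wild type at 29 hpf the count of called genes was 2 without the 4 libraries that stood apart, in place of 1. At 48 hpf it was 4 with only the libraries compared and 3 without the 4 libraries, in place of 0. In Meevs at 48 hpf it was 2 with DESeq2 size factors in edgeR and 2 in DESeq2, in place of 4. The difference of the UVB effects at 29 hpf gave 2 without the 4 libraries, in place of 0. The cause of these shifts was not tested.

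Leaving out 1 library at a time, the counts for stage ranged over 40 to 42 in wild type mock, 41 to 44 in Meevs mock, 41 to 42 in wild type UVB and 42 to 44 in Meevs UVB embryos. For genotype they ranged over 28 to 35 and 33 to 37 at 29 hpf in mock and UVB embryos, and over 19 to 34 and 25 to 33 at 48 hpf. For UVB they ranged over 1 to 2 and 0 to 3 in wild type and 1 to 2 and 1 to 11 in Meevs, at 29 and 48 hpf. For the differences they ranged over 0 to 1 and 0 to 0 for UVB at 29 and 48 hpf, and over 0 to 2 and 10 to 26 for stage in mock and UVB embryos. Where a group is left with 2 libraries they share the spread of all groups.

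With the replicate number as a block, which the libraries' deviations gave no reason to use, the counts were 41, 43, 42 and 43 for stage and 33, 37, 28 and 29 for genotype. They were 1, 0, 3 and 4 for UVB, 0 and 0 for its differences, and 0 and 19 for those of stage. Only for the UVB effect in wild type at 48 hpf did every library correlate best with its own number. Low counts limit cryabb, crybb3, crygn1 and the 6 genes nearly silent at 29 hpf, and reads shared between copies limit single gamma M2 values. Copies of the gene table could not be checked against sequences here.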
